A study of Mus musculus with 96 samples.

Results

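The genes described here are the 10 core members of the Tgf-beta pathway, the ligands Tgfb1, Tgfb2 and Tgfb3, the receptors Tgfbr1 and Tgfbr2, and the signal transducers Smad2, Smad3, Smad4, Smad6 and Smad7. They were chosen by gene symbol, and all 10 were found among the 15895 genes of the deposited table. RNA was sequenced from primary mouse embryonic fibroblasts (MEF) of the CF-1 strain, prepared from embryos at day 13, which are a mixed population of connective tissue cells and not a clonal line. Every culture was first kept for 36 h in 0.5% fetal calf serum, which brings the cells into quiescence, and serum was then raised to 20% at 0 h. Of 96 samples 95 were used, 63 of Cycle 1, a course that ends at 38 h, and 32 of Cycle 2, which ends at 27 h, both beginning 1 h ahead of serum, with each time sampled once in a Cycle. The remaining sample, of Cycle 1, was left out because no column name gave both its Cycle and its time. The starved group holds the 4 libraries taken 1 h before serum and at 0 h, 2 in each Cycle, and 29 hours after serum were sampled in both Cycles. No culture was kept without serum over the same hours, so time in culture and serum cannot be told apart.

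Tgf-beta ligands are secreted dimers that bind a type II receptor, which then phosphorylates a type I receptor. The type I receptor phosphorylates the receptor-activated Smads, these join Smad4 and enter the nucleus, and the inhibitory Smads block the same step. In fibroblasts the pathway is best known for driving matrix synthesis and contractile genes, and in many cell types it restrains entry into the cell cycle.

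The values are a normalized signal, that is exon reads of each library scaled to the same total, with no division by transcript length. The value of 1 read could be worked out for every library, and by it the reads in the table numbered 4352235 to 12551892 in Cycle 1 and 4470164 to 11290332 in Cycle 2. The libraries labelled 0 h go against a fully starved state. Fos, an immediate early transcription factor gene, rose from 914 at 1 h before serum to 24883 in the library labelled 0 h of Cycle 1 and from 466 to 15149 in that of Cycle 2, and 62 of 10485 genes with a mean of at least 50 were over 2-fold higher at 0 h in both Cycles. Of the 10 members only Smad7 was among these 62, and it is therefore given below with either library as the baseline. The 24.5 h library of Cycle 1 lay farthest from its neighbours in time (median absolute log2 distance 0.411 over genes, against 0.0893 for the median library). It enters none of the tests on the shared hours. It is in the alternative runs over every library or over Cycle 1 alone, and in the correlations over the 63 libraries of Cycle 1. Extremes that fall in it are given with and without it. The 10 fibroblast markers were detected in every library, Col1a2 from 37114 to 154031, and their summed signal went from 349937 to 521236 in starved libraries to 162792 to 499603 after serum. Some markers of other cells were near 0 in many libraries. The endothelial gene Pecam1 ran from 0 to 47.4, the epithelial gene Epcam from 0 to 38.1 and the leukocyte gene Ptprc from 2.62 to 91.4. Krt5 was at 0 in 18 libraries and Myod1 in 11. Others in these lists were higher, among them Nes at 506 to 4591, Des at 306 to 2131, Acta1 at 40.4 to 671 and Krt18 at 19.5 to 441. The macrophage genes Csf1r (37.6 to 270), Cd68 (37.3 to 245) and Emr1 (12.7 to 139) and the endothelial gene Kdr (23.5 to 176) were at 0 in no library. From starved libraries to those after serum, the summed endothelial list (5 of 5 genes found) went from 213-282 to 49.0-278, the epithelial list (6 of 6) from 110-346 to 39.0-652 and the macrophage and blood list (4 of 7) from 207-436 to 126-619. The muscle list (4 of 5) went from 961-1951 to 373-2542 and the neural list (5 of 5), in which Nes is the largest term, from 723-1165 to 613-4848. The part of these shifts in the results was not tested. The sources do not say whether the Cycles came from separate embryos or cultures, so the p-values measure the spread between these libraries only. In such bulk samples fewer cells of a type and less RNA per cell cannot be told apart.

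The members differed in when they rose or fell after serum, with Tgfb2, Tgfbr1 and Smad3 sharing an early peak. Over the time course 7 of the 10 members changed (limma F test over the 29 shared hours at an adjusted p of 0.05, with at least 1 hour more than 2-fold from the starved level), where 52.5% of all genes did. Of the 7, Tgfb1, Tgfb2, Tgfb3, Smad3, Smad6 and Smad7 were high at the hour of their largest change (15.5% of all genes) and Tgfbr2 was low (37.0%). All 10 had an adjusted p under 0.05 in this test, from 3.36e-18 for Tgfb1 to 0.0378 for Smad4, where 79.3% of all genes did. The members that missed the fold were Tgfbr1, Smad2 and Smad4, whose largest fitted changes at a single hour were log2 0.89, -0.83 and -0.44. Hours were also grouped into 8 windows and each window was set against the starved libraries, a gene being counted as changed at an adjusted p under 0.05 and a fold of at least 1.5. Of the 80 tests of 10 members in 8 windows, 27 were rises, where 12.7% of all gene tests were, and 17 were falls, where 26.0% were. Smad4 was the only member with no change in any window by this rule. Between successive windows, 7 of 70 tests were rises and 10 were falls, in 7 members, where 4.02% and 4.54% of all gene tests were. Member steps were found up to the one from 11-14 h to 15-18 h. Steps also became rarer with time over all genes. From 1-1.5 h to 2-3 h 7.71% of genes rose and 15.0% fell, and from 11-14 h to 15-18 h 0.315% and 0.673%. No member passed from 15-18 h to 19-23 h (0.182% of genes rose and 0.440% fell) or from there to 24-27 h (0% and 0.0692%). The median gene fell a little in every window, by log2 0.12 to 0.32, and rescaling by size factors brought that of the 2-3 h window from -0.32 to -0.03, so that early falls of small size depend on the scaling.

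**Figure D1:**
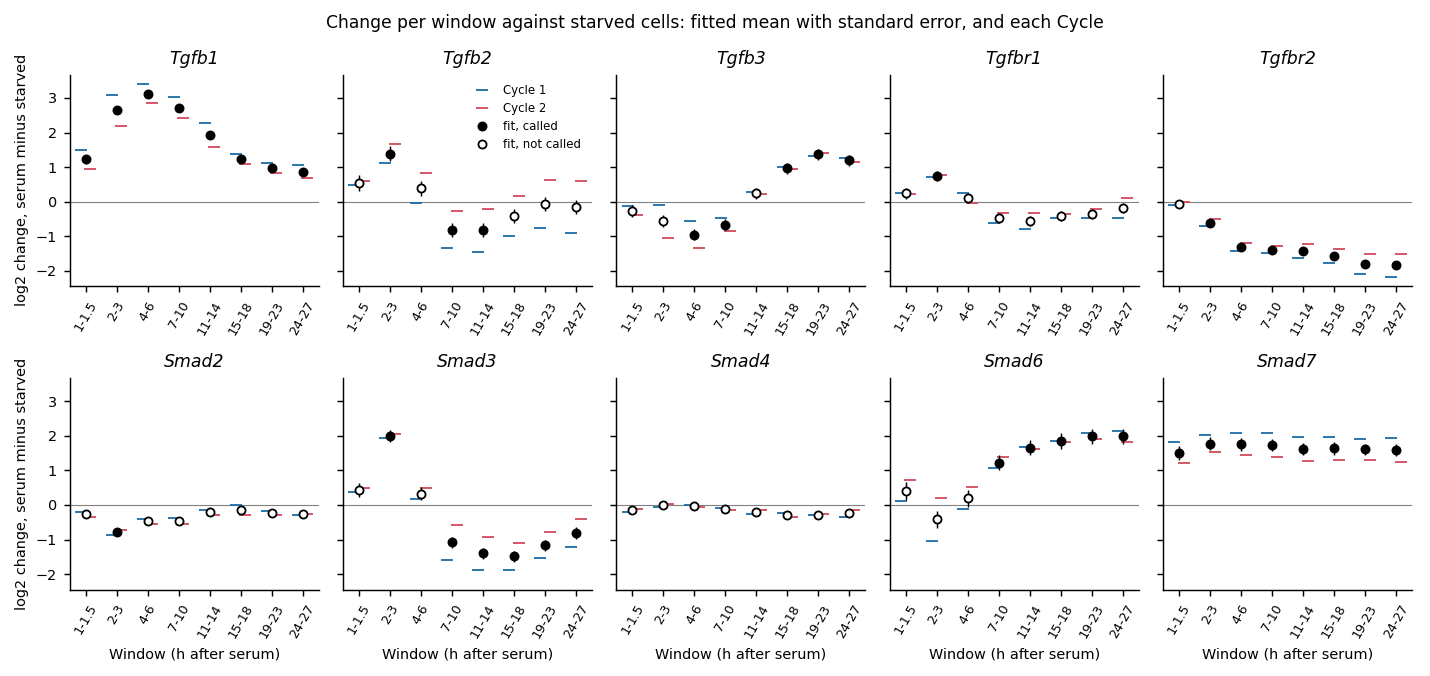
Change of the 10 members per window. The horizontal axis gives 8 windows in hours after serum and the vertical axis the log2 change of signal, serum minus starved; black points are the fitted means with standard errors, filled where the change passed the test, and coloured dashes are the Cycles. Tgfb1 peaks in the 4-6 h window at log2 3.13, Tgfb3 and Smad6 rise late, Tgfbr2 falls to -1.84, and the fitted change of Smad4 goes no lower than log2 -0.28.

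In starved cells, compared per kilobase of the longest coding transcript, Tgfb3 had the highest mean signal of the 10, 641 ± 187 per kb (SD, n = 4), and Smad6 the lowest, 54.6 ± 9.33. Tgfbr2 followed Tgfb3 at 397 ± 48.0 per kb, and the ranges did not overlap, with Tgfb3 between 463 and 832 and Tgfbr2 between 355 and 439. Smad2 at 301 ± 24.7 and Smad4 at 293 ± 16.0 per kb overlapped. The levels of Tgfb1 (174 ± 39.7), Tgfbr1 (158 ± 4.34) and Smad3 (158 ± 36.6) also overlapped. Tgfb2 (101 ± 27.8), Smad7 (92.8 ± 48.6) and Smad6 came last. With the union of all exons as the length, Smad2 and Smad4 changed places, as did Tgfbr1 and Smad3, and the other 6 kept theirs. For Smad2 and Tgfbr2, 48.4% of the values were not whole reads, against at most 2.11% for the other members, for a cause that was not tested, and their place in this order is less certain.

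Tgfb2, Tgfbr1 and Smad3 all peaked between 2.5 h and 3.5 h. The promoters of these and of Tgfb1, the ligand that rose most, are shown so that their sequences can be compared, a choice made after their values were seen. Promoters were found for 6 of the 10 members in the RefSeq table (GRCm38.p6). Each sequence is the 250 bases before the annotated start, in the direction of transcription, and capitals mark matches on either strand to 7 motifs, TGANTCA for AP-1, TGACGTCA for the CRE, CACGTG for the E-box, TATAAA for the TATA box, CCAAT for its box of the same name, GGGCGG for the GC box and CAGAC for the Smad box, none of which overlap here. The Tgfb2 sequence is chr1:186705990-186706239 on the minus strand, that of Tgfbr1 chr4:47352972-47353221 on the plus strand, that of Smad3 chr9:63757995-63758244 on the minus strand and that of Tgfb1 chr7:25686752-25687001 on the plus strand.
Tgfb2: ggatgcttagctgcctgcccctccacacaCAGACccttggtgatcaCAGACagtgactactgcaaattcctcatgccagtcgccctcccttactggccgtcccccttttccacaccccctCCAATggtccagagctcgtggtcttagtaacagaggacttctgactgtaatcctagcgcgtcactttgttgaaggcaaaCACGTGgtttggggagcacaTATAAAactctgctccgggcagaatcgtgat
Tgfbr1: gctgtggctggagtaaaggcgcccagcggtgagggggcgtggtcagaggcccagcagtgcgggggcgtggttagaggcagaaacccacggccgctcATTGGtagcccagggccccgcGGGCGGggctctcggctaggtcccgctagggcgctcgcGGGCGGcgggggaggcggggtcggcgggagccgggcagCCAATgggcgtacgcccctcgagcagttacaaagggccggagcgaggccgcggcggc
Smad3: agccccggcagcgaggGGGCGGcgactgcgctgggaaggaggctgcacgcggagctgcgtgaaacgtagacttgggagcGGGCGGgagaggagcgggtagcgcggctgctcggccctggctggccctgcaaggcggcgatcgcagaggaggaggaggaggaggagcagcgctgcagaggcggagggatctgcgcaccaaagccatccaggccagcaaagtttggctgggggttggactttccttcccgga
Tgfb1: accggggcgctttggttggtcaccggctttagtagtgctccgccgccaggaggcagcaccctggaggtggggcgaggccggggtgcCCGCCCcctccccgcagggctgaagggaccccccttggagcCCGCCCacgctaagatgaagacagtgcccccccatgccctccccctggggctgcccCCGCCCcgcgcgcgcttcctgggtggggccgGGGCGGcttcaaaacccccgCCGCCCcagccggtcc

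The Tgfb2 promoter differs from the rest of the group in base composition and motifs. Its GC content was 53.6%, against 74.8% for Tgfbr1, 69.2% for Smad3 and 75.2% for Tgfb1. It holds a TATA box 31 to 26 bases before the start and an E-box 51 to 46 bases before it, and these motifs are present in 12.4% and 6.02% of the 32851 promoter windows of the table. It also has 2 Smad boxes, a motif found in 42.2% of the windows, and 1 CCAAT box (33.8%). The other promoters hold GC boxes, found in 32.7% of the windows, 5 in Tgfb1, 2 in Tgfbr1 and 2 in Smad3, and Tgfbr1 has 2 CCAAT boxes. The letters of the AP-1 motif (6.75%) and of the CRE (1.55%) are in none of the 4 windows.

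Tgfb1, the ligand best known for matrix induction and growth control, lies on chromosome 7 from 26472021 to 26490096 in NCBIM37. Its signal in the library 1 h before serum and the library labelled 0 h was 301 and 309 in Cycle 1 and 445 and 463 in Cycle 2. After serum it ran from 309 to 3612 in Cycle 1, with a median of 798, and from 499 to 3572 in Cycle 2, with a median of 1034. All 30 libraries of Cycle 2 after serum and 60 of 61 of Cycle 1 were above both starved libraries of their Cycle. The peak was at 6.5 h in Cycle 1 and at 5 h in Cycle 2, 11.8-fold and 7.87-fold over the starved mean. The rise was already log2 1.23 at 1-1.5 h (SE 0.127, adjusted p = 2.95e-09 from limma) and reached log2 3.13 at 4-6 h (SE 0.116, adjusted p = 1.01e-20 from limma), with 3.40 in Cycle 1 and 2.85 in Cycle 2. It then declined, by log2 0.80 from 7-10 h to 11-14 h and by 0.69 from there to 15-18 h, but at 24-27 h it still stood log2 0.87 above the starved level (1.82-fold). The step to 11-14 h was shared by 2.55% of all genes and the step to 15-18 h by 0.673%.

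Tgfb2, on chromosome 1 from 188447065 to 188529871, had the shortest burst of the ligands. Starved libraries gave 591 and 592 in Cycle 1 and 383 and 348 in Cycle 2. The highest value after serum was 1405 at 2.5 h in Cycle 1 and 1254 at 3 h in Cycle 2, 2.38-fold and 3.43-fold over the starved mean. In both Cycles every shared hour from 1 h to 3 h lay above the starved libraries. The change at 2-3 h was log2 1.39 (SE 0.219, adjusted p = 1.66e-06 from limma), and the step up from 1-1.5 h was 0.85, in a step where 7.71% of all genes rose. The signal then fell by log2 1.00 to the 4-6 h window and by 1.20 from there to the 7-10 h window. What followed differed between the Cycles. In Cycle 1 the lowest value was 189 at 13 h, 0.319 of the starved mean, and 54 of 61 libraries after serum were below both starved libraries. In Cycle 2 the lowest was 244 at 10 h, 0.669 of the starved mean, and 22 of 30 libraries were above both. The difference was largest at 24-27 h, where the log2 change was -0.92 in Cycle 1 and 0.61 in Cycle 2. The Cycle by window interaction, a single test over all 8 windows together, gave an adjusted p of 0.000662 from limma. In this test the successive hours of a Cycle within a window served as its replicates, so it measures spread between hours and not between repeated courses. It was passed by 41.4% of all genes. The falls at 7-10 h (log2 -0.81) and 11-14 h (log2 -0.83) did not pass without Cycle 1.

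Tgfb3, on chromosome 12 from 87397694 to 87419991, is the ligand known for its part in palate fusion, and here it was low while Tgfb1 was high. Starved libraries gave 1686 and 1568 in Cycle 1 and 2816 and 2600 in Cycle 2. It dropped to its lowest value, 921 at 5.5 h in Cycle 1 and 1011 at 4 h in Cycle 2, and then climbed to 4378 at 22 h in Cycle 1 and 7765 at 21 h in Cycle 2. With the 24.5 h library the Cycle 1 maximum would be 4812. The Cycles ran at different levels, with folds of 2.69 and 2.87 over the starved mean at the top. The fall at 4-6 h was log2 -0.95 (SE 0.165, adjusted p = 8.66e-06 from limma) and the rise at 19-23 h was 1.37 (SE 0.151, adjusted p = 2.55e-09 from limma). At both times no library overlapped the starved libraries of its Cycle. The climb passed in the step from 7-10 h to 11-14 h, log2 0.91, and in the step from there to 15-18 h, 0.72, where 2.45% and 0.315% of all genes rose. The 2 Cycles differed most at 2-3 h, with -0.09 in Cycle 1 and -1.04 in Cycle 2, and the interaction had an adjusted p of 0.00113 from limma.

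**Figure D2:**
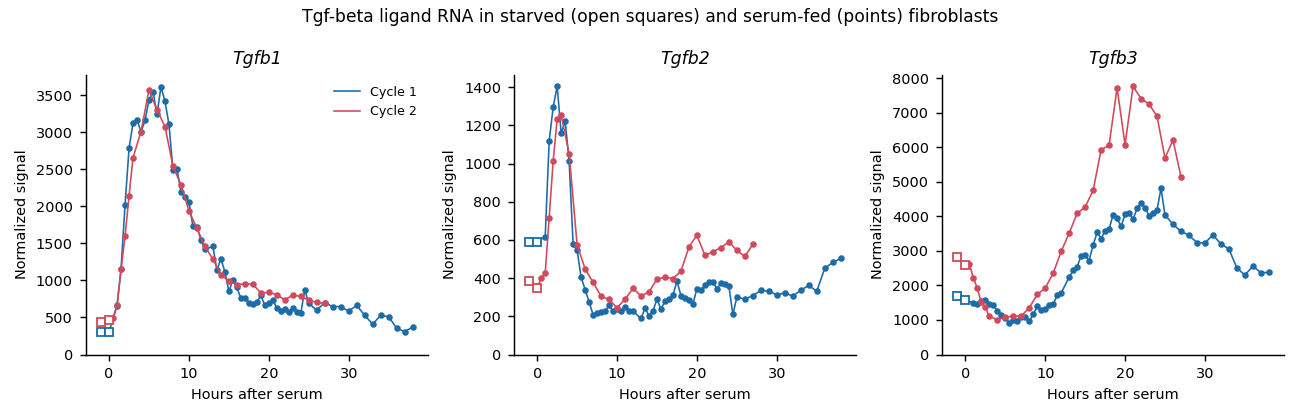
Signal of the 3 ligand genes by hour after serum. Each panel has a linear vertical axis from 0, open squares are the starved libraries, points the libraries after serum, and lines join the libraries of a Cycle. Tgfb1 peaks at 6.5 h and 5 h, Tgfb2 at 2.5 h and 3 h, and Tgfb3 has its low between 4 h and 5.5 h before it rises.

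Together the ligand genes exchanged places and then returned. Per kilobase, Tgfb3 made up 64.4% of the summed ligand signal of starved cells in Cycle 1 and 73.7% in Cycle 2, and Tgfb1 18.8% and 19.2%. At 4-6 h Tgfb1 made up 76.3% and 76.6%, and Tgfb3 16.9% and 16.0%. Tgfb1 was above Tgfb3 in every library from 1.5 h to 13 h in Cycle 1 and from 2 h to 11 h in Cycle 2, and in none outside these hours. By 19-23 h Tgfb3 again had 75.8% and 81.3%. The share of Tgfb2 was 16.8% in starved cells of Cycle 1 and 7.11% in those of Cycle 2. Its highest window in Cycle 1, 1-1.5 h, gave 17.3% (14.9% to 19.7% over 2 libraries), close to the starved share. In Cycle 2 the highest was 15.3% at 2-3 h. At 7-10 h the share was 3.22% and 3.88%. The summed ligand signal per kb was 746 and 1086 in starved cells, 1946 and 1976 at 4-6 h, and 1584 and 2629 at 19-23 h. Shares of RNA do not give the secreted or active protein.

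**Figure D3:**
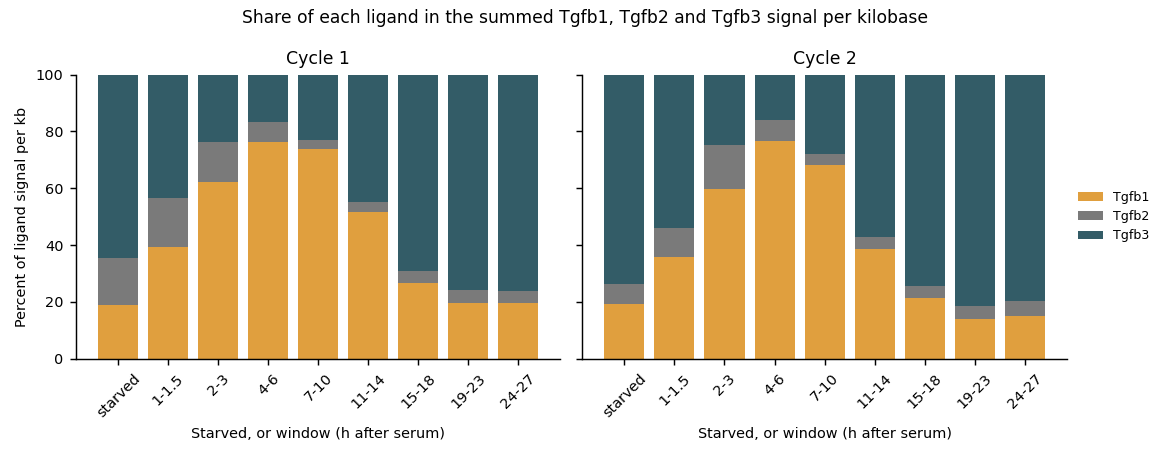
Share of each ligand gene in the summed signal per kilobase, in percent, for starved cells and 8 windows of each Cycle. Bars are means over the libraries of a window. Tgfb3 leads in starved cells (64.4% and 73.7%), Tgfb1 at 4-6 h (76.3% and 76.6%), and Tgfb3 again at 19-23 h (75.8% and 81.3%).

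The receptor genes parted from each other. Tgfbr2 encodes the type II receptor, which binds the ligand first, and lies on chromosome 9 from 115993415 to 116084383. Its signal was 3551 and 3547 in the starved libraries of Cycle 1 and 2883 and 2871 in those of Cycle 2. It was 3371 and 2884 at 1 h, and by 5 h it had fallen to 1318 and 1161. After serum every one of the 61 libraries of Cycle 1 and 29 of 30 of Cycle 2 lay below both starved libraries. The lowest value of Cycle 1 was 681 in the 24.5 h library and 688 at 32 h without it, 0.194 of the starved mean, and that of Cycle 2 was 893 at 21 h, 0.310 of it. The log2 change was -1.31 at 4-6 h (SE 0.109, adjusted p = 5.04e-12 from limma) and -1.84 at 24-27 h (SE 0.103, adjusted p = 3.76e-16 from limma), falls that 30.5% and 29.0% of all genes shared in direction and threshold. The fall was deeper in Cycle 1, -2.17 against -1.52 at 24-27 h, with an interaction adjusted p of 0.00463 from limma. The earlier fall at 2-3 h (log2 -0.60) was -0.29 after rescaling by size factors and did not pass there, and it also did not pass without either starved library of Cycle 1 (-0.54 in both cases).

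Tgfbr1, the type I receptor and kinase of the receptor-activated Smads, lies on chromosome 4 from 47366094 to 47427803. It started from 891 and 889.9 in Cycle 1 and from 942 and 918 in Cycle 2, and rose to 1838 at 3.5 h and 1776 at 3 h, 2.06-fold and 1.91-fold. All shared hours from 2 h to 3 h lay above the starved libraries of their Cycle. The rise at 2-3 h was log2 0.74 (SE 0.147, adjusted p = 5.84e-05 from limma), as in 11.1% of all genes, and the following steps were -0.62 to 4-6 h and -0.59 to 7-10 h. The first of these did not pass without Cycle 2 (-0.50, adjusted p = 0.0697 from limma), in a run that includes the 24.5 h library. The second did not pass without Cycle 1 (-0.29, adjusted p = 0.157 from limma) and was under 1.5-fold with a pseudocount of 10 (-0.58). From 7 h to 23 h every library of the shared hours lay below the starved libraries of its Cycle. The changes in those windows, log2 -0.35 to -0.55, had adjusted p-values of 0.00100 to 0.0227 from limma and were smaller than 1.5-fold. The lowest value of Cycle 1 was 267 in the 24.5 h library and 418 at 13 h without it, and that of Cycle 2 was 636 at 10 h. Per kilobase Tgfbr1 made up 26.1% and 31.2% of the receptor pair in starved cells, 52.9% and 50.6% at 4-6 h, 39.1% and 47.1% at 7-10 h, 39.0% and 46.0% at 11-14 h, 46.3% and 47.9% at 15-18 h, 51.8% and 52.7% at 19-23 h, and 53.4% and 58.5% at 24-27 h. With the longest coding transcript as the length, the order of the receptor genes thus changed more than once. Where the shares are nearly equal, the order depends on the length taken for Tgfbr1. It was 5756 bases here, is 6534 with the union of all exons and 2345 for the median coding transcript. For Tgfbr2, 48.4% of the values were not whole reads, so its share is also less certain.

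Smad3, on chromosome 9 from 63494574 to 63605801, encodes a receptor-activated Smad that binds DNA directly. Its signal was 956 and 973 in the starved libraries of Cycle 1 and 621 and 666 in those of Cycle 2. It was near that level at 1 h (782 and 654), and at 2.5 h it reached 4193 and 2791, 4.35-fold and 4.34-fold over the starved means. The rise at 2-3 h was log2 1.99 (SE 0.179, adjusted p = 2.57e-11 from limma), with 1.93 in Cycle 1 and 2.05 in Cycle 2. It was undone within hours, by log2 -1.66 to the 4-6 h window and -1.41 more to the 7-10 h window, falls that 8.46% and 4.61% of all genes shared. The lowest values were 213 at 14 h in Cycle 1 and 273 at 18 h in Cycle 2, 0.221 and 0.425 of the starved means. At 15-18 h the log2 change was -1.49 (SE 0.170, adjusted p = 5.56e-09 from limma). From 7 h to 27 h no library of the shared hours reached the starved libraries of its Cycle. The log2 values at 15-18 h were -1.88 in Cycle 1 and -1.10 in Cycle 2, and without Cycle 1 the falls at 7-10 h (-0.58) and 24-27 h (-0.41) did not pass.

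Smad2, the other receptor-activated Smad, moved the opposite way at the time of the Smad3 peak. Its signal was 895 and 769 in the starved libraries of Cycle 1 and 931 and 840.1 in those of Cycle 2, and its lowest values were 413 at 2.5 h and 477 at 3 h, 0.497 and 0.539 of the starved means. The fall at 2-3 h was log2 -0.79 (SE 0.0858, adjusted p = 1.50e-09 from limma) in a window where 32.1% of all genes fell by the same rule. After rescaling by size factors it was -0.48 and no longer 1.5-fold. In the later windows Smad2 lay log2 0.16 to 0.47 below the starved level and did not reach 1.5-fold. Smad2 and Smad3 were also set in order by signal per kilobase. This order depends on the length taken, here the longest coding transcripts of 2857 bases for Smad2 and 5090 for Smad3, where the median ones are 1305 and 605. Also, 48.4% of the Smad2 values were not whole reads. Per kilobase of the longest coding transcript Smad3 passed Smad2 in every library from 1.5 h to 4.5 h in Cycle 1 and from 1.5 h to 4 h in Cycle 2, and in none at other times. The share of Smad3 in their sum was 39.5% and 29.0% in starved cells, 81.8% and 73.5% at 2-3 h and 15.1% and 19.0% at 15-18 h.

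Smad4 encodes the common partner that the receptor-activated Smads need for most target genes, and it moved least. Its signal was 992 and 969 in the starved libraries of Cycle 1 and 1065 and 937 in those of Cycle 2. After serum it ran from 561 in the 24.5 h library (579 at 26 h without it) to 1111 at 38 h in Cycle 1, with a median of 852, and from 756 at 17 h to 1038 at 3 h in Cycle 2, with a median of 909.9. Its changes ran from log2 -0.28 to -0.01 over the 8 windows. Those from 11-14 h on had adjusted p-values of 0.00192 to 0.0289 from limma but were all under 1.5-fold. From 15 h to 23 h the libraries of the shared hours lay below the starved libraries of their Cycle without overlap.

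**Figure D4:**
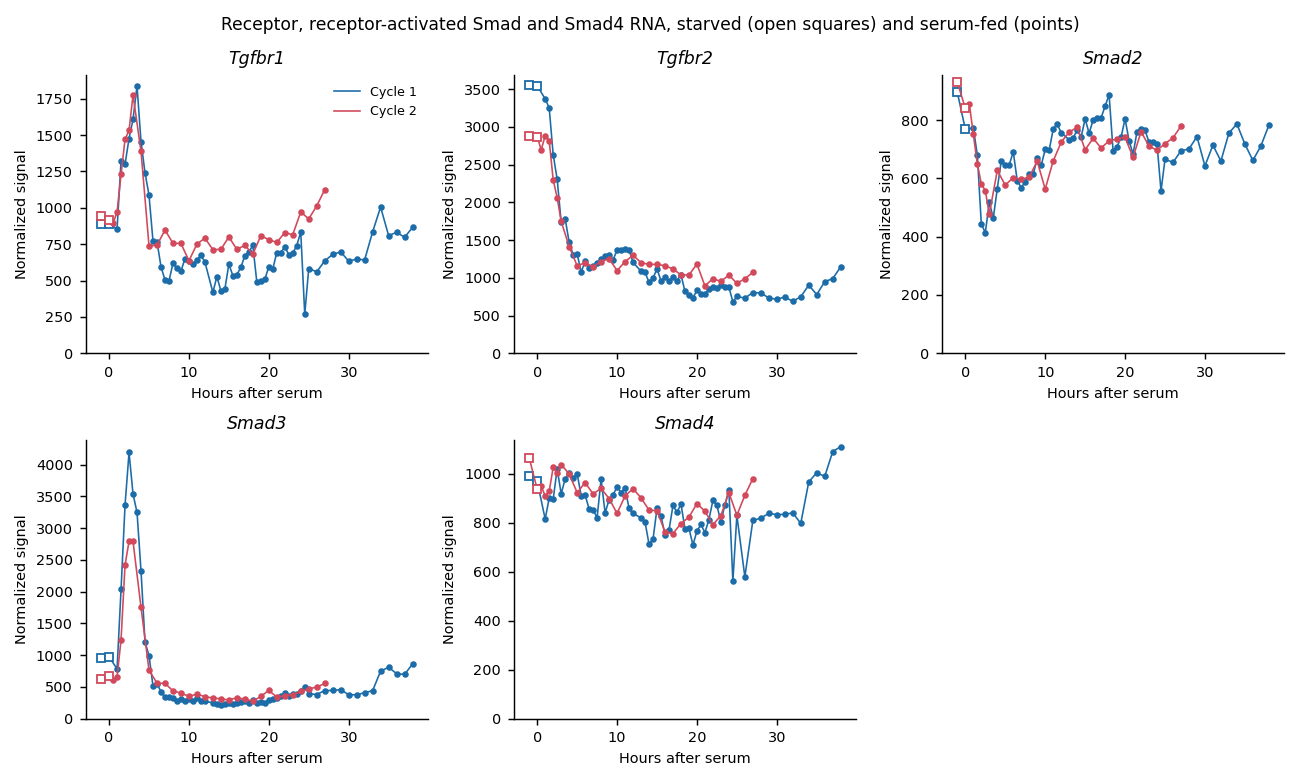
Signal of the receptor genes, Smad2, Smad3 and Smad4 by hour after serum, with linear vertical axes from 0. Open squares are starved libraries and points libraries after serum, joined by lines within a Cycle. Tgfbr1 and Smad3 share a peak between 2.5 h and 3.5 h, at which Smad2 is at its lowest, while Tgfbr2 falls from 3551 to 1318 by 5 h in Cycle 1 and the 24.5 h library stands apart in Tgfbr1 and Smad4.

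Smad7, an inhibitory Smad that brings ubiquitin ligases to the type I receptor, was the only member already over 2-fold higher in the libraries labelled 0 h. It was 174 at 1 h before serum and 484 in the library labelled 0 h of Cycle 1, and 286 and 643 in Cycle 2, log2 steps of 1.47 and 1.16. At 1 h it was 1085 and 1014, and it then held a plateau to 26 h. After serum 56 of 61 libraries of Cycle 1 and 29 of 30 of Cycle 2 were above both starved libraries. The change was log2 1.50 at 1-1.5 h (SE 0.205, adjusted p = 5.98e-07 from limma), as in 5.22% of all genes, and 1.59 to 1.77 in the other windows. None of the 7 steps from window to window passed the test. The size depends on which starved library is taken: against the libraries 1 h before serum alone the fold at 2-3 h was 5.40, against those labelled 0 h alone it was 2.17, and with both 3.42. The rise passed in all 8 windows with either baseline.

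At the end of both courses Smad7 dropped at once. In Cycle 1 the 6 libraries from 28 h to 33 h held 1008 to 1133 and the 5 from 34 h to 38 h held 405 to 441. In Cycle 2 the libraries from 24 h to 26 h held 1077 to 1346 and the 27 h library 622. The log2 steps between neighbouring libraries were -1.39 and -1.11, and 35 of 10485 genes fell at least as much in both. The other members were compared between 34-38 h and 28-33 h of Cycle 1 without a test. Tgfb3 was lower without overlap (2299 to 2558 against 3055 to 3460), as were 8.51% of the 10485 genes with a mean of at least 50. Smad3 (696 to 859 against 375 to 456) and Smad4 (967 to 1111 against 798 to 841) were higher without overlap, as were 14.2% of the 10485. The other 6 members overlapped. Beside this drop, Spry4, a feedback inhibitor of receptor tyrosine kinases, went from 160.2 to 558 at 28-33 h to 15.8 to 73.5 at 34-38 h, and in Cycle 2 from 542 to 625 at 24-26 h to 15.7 at 27 h. The part of culture handling in these late libraries was not tested, and without both 27 h libraries the Smad7 change at 24-27 h was log2 1.71 in place of 1.59.

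Smad6, the inhibitory Smad best known for acting on BMP receptors, rose late and slowly. It lies on chromosome 9 from 63800953 to 63869866. Its signal was 168 and 177 in the starved libraries of Cycle 1 and 118 and 171 in those of Cycle 2. In Cycle 1 it went from 266 at 1 h to 51.3 at 2 h, the latter a count of 54 reads whose 95% Poisson interval spans 38.5 to 66.9 in signal and covers counting error only. In Cycle 2 the same hours gave 233 and 144, and the Cycles differed most at 2-3 h, with log2 -1.03 in Cycle 1 and 0.19 in Cycle 2 (interaction adjusted p = 0.000410 from limma). From 7 h on all libraries of the shared hours were above the starved libraries. The step into the 7-10 h window was log2 1.03, where 6.07% of all genes rose. The change was log2 1.22 at 7-10 h (SE 0.223, adjusted p = 2.00e-05 from limma) and 1.99 at 19-23 h (SE 0.216, adjusted p = 1.76e-09 from limma), with 2.07 and 1.90 in the Cycles. The highest value was 948 at 35 h in Cycle 1 (1069.6 with the 24.5 h library) and 670.4 at 27 h in Cycle 2, 5.49-fold and 4.64-fold over the starved means. Both of these hours are among the late libraries in which Smad7 had dropped. In Cycle 2 Smad6 was 452 to 457 at 24-26 h, and in Cycle 1 it reached 852 in the shared hours of the 24-27 h window.

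**Figure D5:**
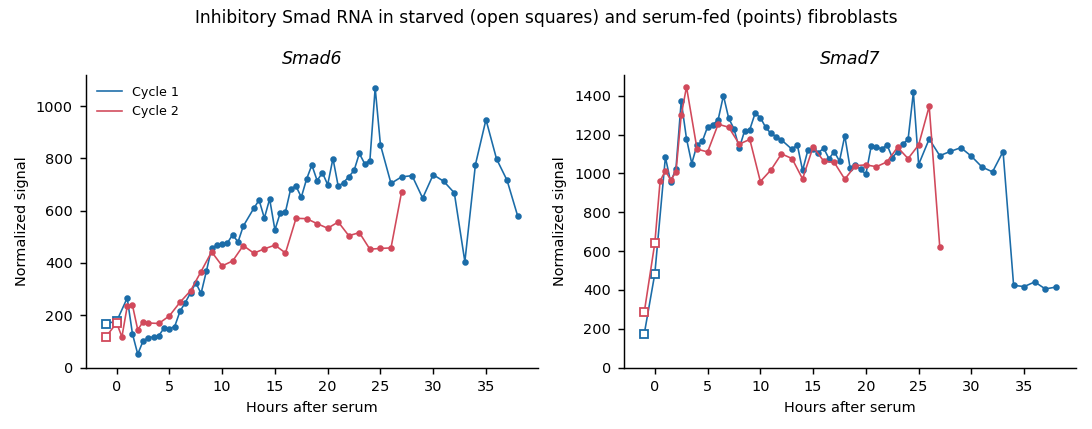
Signal of Smad6 and Smad7 by hour after serum, with linear vertical axes from 0. Open squares are starved libraries and points libraries after serum, joined by lines within a Cycle. Smad7 is high from 1 h and drops to 405 to 441 after 33 h in Cycle 1 and to 622 at 27 h in Cycle 2, while Smad6 climbs from the 7-10 h window on.

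Courses could be closely correlated between Cycles and still differ in size at single windows, as the interaction test gave for Tgfb2, Tgfb3, Tgfbr2 and Smad6. Over the 29 shared hours the Pearson correlation between Cycles was 0.978 for Tgfb1 and 0.978 for Smad3, 0.965 for Tgfb3, 0.960 for Smad6 and 0.953 for Tgfbr2, against a median of 0.734 over the genes with a mean of at least 50. It was 0.875 for Tgfb2, 0.781 for Tgfbr1, 0.722 for Smad2, 0.405 for Smad7 and 0.348 for Smad4, the last a gene that hardly moved. The points are successive hours and share their order in time, so these values are descriptions.

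Genes with the most similar courses were taken by the lower of the 2 Pearson correlations, over 63 libraries of Cycle 1 and 32 of Cycle 2, among 10485 genes. Of the 30 places among the 3 nearest genes of each member, 2 were held by another member. Tgfbr1 was the gene most like Tgfb2 (lower r 0.842), ahead of Notch1 (0.817) and Stard13 (0.812), and Smad3 was the third most like Tgfbr1 (0.865), after Zc3h11a (0.899) and Trip12 (0.869). For Smad3 itself the closest were Bcl2l11 (0.951), Sh3pxd2a (0.931) and Pxn (0.930). Tgfb1 was closest to Abhd1 (0.963), Sema7a (0.959) and Dusp10 (0.959). Tgfb3 was closest to Fam198b (0.944), to Myl9 (0.935), a myosin light chain of contractile cells, and to Gypc (0.919). Tgfbr2 was closest to Sema5a (0.959), Rerg (0.954) and Zfp36l1 (0.947). Smad6 was closest to Tnk2 (0.925), Snx7 (0.920) and Psmd2 (0.913), and Smad7 to Phlda1 (0.842), Maff (0.838) and Yrdc (0.827). For Smad2 they were Brms1l (0.828), Rfc1 (0.817) and Pms1 (0.815), and for Smad4 Mysm1 (0.802), Zfp260 (0.801) and Ireb2 (0.792).

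Ccnd1, the G1 cyclin, and Cdkn1b, the Cdk inhibitor p27, are joined to Tgfb1 in the network the study drew for its first interval. Cdkn1b ran opposite to Tgfb1, with a Pearson correlation of -0.909 in Cycle 1 and -0.888 in Cycle 2. Its signal fell from a starved mean of 685 to 130.2 at 2.5 h in Cycle 1 and from 659 to 290.1 at 6 h in Cycle 2. Ccnd1 was less closely related, at -0.366 and -0.570. It had its lowest value early, 524 at 2 h and 592 at 3 h, and its highest late, 3528 at 30 h in Cycle 1 and 1518 at 25 h in Cycle 2. These correlations compare values at the same hour over all libraries of a Cycle, starved ones and late hours included. The links of the study instead predict a gene from earlier values of others within its first interval, so the measures differ. The libraries of a Cycle share their order in time and depth, so these too are descriptions.

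The wider pathway was followed in 8 lists of 88 genes, of which 87 were in the table. Of these, 77 changed in at least 1 window (88.5%), where 75.3% of all genes did. Among their 696 tests 214 were rises (30.7%, against 12.7% of all gene tests) and 186 were falls (26.7%, against 26.0%, a share near the background). At 2-3 h the background was 11.1% of all genes rising and 32.1% falling, with a median log2 change of -0.32. At 4-6 h it was 13.3% and 30.5%, with a median of -0.26, and at 19-23 h 15.4% and 27.9%, with a median of -0.14.

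In the neighbouring activin and BMP branches more ligands fell than rose. Of 11 activin and BMP ligands, 2 rose and 7 fell at 4-6 h (median log2 -1.06), and 3 rose and 5 fell at 19-23 h (-0.58). Inhba, which encodes the activin A subunit, had the largest rise of this list, from starved means of 125 and 462 to 5955 and 6119.5 at 4-6 h (log2 4.57, SE 0.479, adjusted p = 7.68e-10 from limma). Gdf6 fell by log2 2.72 at 2-3 h and Bmp7, with a starved mean of only 23.6 and 7.39, by log2 2.71 at 24-27 h. Among 11 other receptors and coreceptors, 1 rose and 6 fell at 2-3 h, and 1 rose and 3 fell at 4-6 h and again at 19-23 h. Tgfbr3, the coreceptor betaglycan that presents Tgfb2, went from starved means of 2610.04 and 2855 to 283 and 623 at 7-10 h (log2 -2.71, SE 0.183, adjusted p = 3.86e-14 from limma). Acvr2a fell by log2 2.05 at 4-6 h, while Bmpr1b was the receptor that rose, by log2 2.33 in the same window. Of the 3 BMP Smads, Smad9 rose by log2 2.01 at 24-27 h and Smad5 fell by log2 0.60 there.

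Genes that release or restrain the ligands were split. In the latency and activation list, 5 of 12 rose and 5 fell at 19-23 h (median log2 -0.04). Thbs1, an activator of latent Tgf-beta, went from starved means of 26532 and 71067 to 127326 and 165223 at 15-18 h (log2 1.76, SE 0.181, adjusted p = 6.00e-10 from limma). Itgb8 fell by log2 2.70 at 19-23 h and Itgb6 by log2 1.79 at 24-27 h, the latter from starved means of 16.7 and 3.97, where few reads stand behind the value. Of 8 secreted antagonists, 5 rose and 2 fell at 19-23 h (median log2 0.93). Nog, a BMP antagonist, rose by log2 2.91 at 19-23 h, Fst, which binds activin, by log2 2.73 at 7-10 h, and Dcn, a matrix proteoglycan that is also in the fibroblast marker list, fell by log2 2.78 at 24-27 h.

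Inside the cell, 5 of 12 negative regulators rose and 2 fell at 4-6 h (median log2 0.35), and 5 rose and 1 fell at 19-23 h (0.18). Tgif1, a nuclear corepressor of Smads, rose by log2 1.69 at 2-3 h, Pmepa1, which sequesters receptor-activated Smads, by log2 1.51 at 4-6 h, and Skil, the corepressor SnoN, by log2 1.49 at 1-1.5 h. Over the starved libraries, those labelled 0 h among them, Skil ran from 548 to 1456. Of 6 positive regulators, none rose and 4 fell at 2-3 h, none rose and 1 fell at 4-6 h, and 1 rose and 2 fell at 19-23 h. Ep300 fell by log2 1.07 at 2-3 h and Crebbp by log2 0.77 at 19-23 h, both histone acetyltransferases that work with Smads, and Tgfb1i1, known as Hic-5, rose by log2 1.20 at 19-23 h.

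Known Tgf-beta target genes that changed mostly rose in the first hours and went both ways later. Of 24 listed, 9 rose and 1 fell at 1-1.5 h, where 5.22% and 10.9% of all genes did. The baseline of these counts includes the libraries labelled 0 h. Over the starved libraries Junb ran from 1189 to 8579 and Bhlhe40 from 362 to 2798, while Tgfbi ran from 2765 to 3000. For genes as spread as the first 2, the size of an early change depends on the starved library taken. At 2-3 h 10 rose and 1 fell, where 11.1% and 32.1% did. At 4-6 h 8 rose and 6 fell (median log2 -0.18), and at 19-23 h 10 rose and 11 fell (-0.34). Of the 24, Col1a1, Col1a2 and Col3a1 are also in the fibroblast marker list. Il11, a cytokine of fibroblast activation, went from starved means of 20.7 and 33.4 to 2739.5 and 3384 at 7-10 h (log2 6.80, SE 0.352, adjusted p = 4.33e-17 from limma). Ctgf, a matrix-associated growth factor, rose by log2 4.55 and 2.74 at 15-18 h. A direct part of Tgf-beta in these changes was not tested.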

How the data were processed

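PolyA RNA was sequenced as single-end reads from 96 samples of MEF, of which 95 could be matched to a column and were used. Per the labels and the study's methods, the authors used CASAVA, aligned reads with STAR to mm9 and counted exon reads with HOMER on both strands, so that antisense reads cannot be told apart; the authors deposited 1 table of normalized signal per gene, redundant entries removed. The table has 96 columns, of which 1 names a time without a Cycle and was not used, so that 1 sample of Cycle 1 was left out. Low values were whole reads in 94.2% to 96.2% of cases, within 0.1 of a read.

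Values were fitted as log2(signal + 1) with limma 3.58.1 in R 4.3.3, with hour groups and Cycle as a block, over 62 libraries and 31 residual degrees of freedom. A fold change on this scale understates the change of low genes. P-values were adjusted by Benjamini-Hochberg over all 15895 genes. The block rests on the Cycle named in the labels: deviations of libraries of a Cycle correlated over 0.1 in 370 of 406 pairs of hours, with a median of 0.464. Likeness used Python 3.11.15, pandas 2.3.3 and numpy 2.4.6. On simulated data of the 4-6 h comparison with 15895 genes, 34 of 67 genes changed 1.5-fold were called, as were 67 of 67 changed 2-fold. Of the 67 changed 1.5-fold, 61 had an adjusted p under 0.05 from limma, and a call also needs an estimate of 1.5-fold. It also called 10 unchanged genes. The simulated libraries were independent, with the same dispersion for all genes and no Cycle difference, unlike the real ones, so these rates need not hold for the real data.

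The members and lists were chosen with earlier results of these data known. Genes named beside the members are, per pathway list, up to 3 with the largest change past the test and of the same sign in both Cycles, the 3 most alike in course, and Ccnd1 and Cdkn1b. Alternatives were other pseudocounts, a filter on low values, rescaling, limma with its trend and robust options, edgeR 4.0.16 on the recovered reads, other baselines and no block. Others took windows as groups over every library, or left out each starved library, both 27 h libraries or a Cycle. No other library was left out singly. Start and end positions of genes are in NCBIM37 (mm9), and promoters in GRCm38.p6. Positions of Smad2, Smad4 and Smad7, and 1 gene that the naming rule picks, are not reported here.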

Additional observations from a re-analysis of the deposited data

Results flagged for a closer look

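Smad6 had 1 starved library apart from the other 3. It was 118 in the library 1 h before serum of Cycle 2, against 168, 177 and 171, and the gap was 0.854 of the range over the 4 libraries, past the 95% limit of Dixon's test. Chance flags about 1 in 20 groups.

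The course differed between the Cycles for 4 members, by a limma interaction of Cycle and window that 41.4% of all genes passed. For Tgfb2 the adjusted p was 0.000662, with log2 -0.92 in Cycle 1 and 0.61 in Cycle 2 at 24-27 h. For Tgfb3 the adjusted p from limma was 0.00113, with -0.09 and -1.04 at 2-3 h. For Tgfbr2 the adjusted p from limma was 0.00463, with -2.17 and -1.52 at 24-27 h. For Smad6 the adjusted p from limma was 0.000410, with -1.03 and 0.19 at 2-3 h. The hours of a window served as replicates in this test, and each Cycle is a single course, so spread between repeated courses is not measured. Each Cycle has 2 starved libraries, and the Cycle and anything else that differed between the courses cannot be told apart.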

How the results depend on the processing

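The counts of changed members kept within 1.5 times of the reported ones in every alternative run. Members changed over the time course numbered 7 to 8, window rises 27 to 31, window falls 13 to 23, rises between windows 6 to 7, falls between windows 8 to 11 and members that differed between Cycles 4 to 6. Without the replicate block that pairs the libraries of a Cycle, the counts were 7 over the time course, 27 rises and 17 falls per window, and 6 rises and 10 falls between windows, the lost step being that of Tgfb3 from 11-14 h to 15-18 h (adjusted p = 0.116 from limma). Of 44 window calls 37 passed in all 17 alternatives, and of 17 calls between windows 11 did. Rescaling by size factors, and edgeR on whole reads, ended the 2-3 h falls of Smad2 and Tgfbr2 and the 7-10 h fall of Tgfb3. Without Cycle 1 the Tgfb2 values were log2 -0.28 at 7-10 h and -0.20 at 11-14 h, and the steps to 15-18 h of Tgfb1 (-0.51) and Tgfb3 (0.71) did not pass. Choices of the -1 h baseline and of leaving out the 27 h libraries were made after seeing the data. For genes with few reads, such as Bmp7 and Itgb6, depth limits the precision.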
